A study of Mus musculus with 33 samples.

Results

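The 8 genes described here encode colony stimulating factors and their receptors: the ligands Csf1 and Il34, their receptor Csf1r, the receptor chains Csf2ra, Csf2rb and Csf2rb2, the receptor Csf3r, and the related receptor Flt3. They were taken as a list by name, 8 of the 32285 genes listed in the count matrices, and followed across cell classes, tissues and biotin sorts in each sample. The data were single-cell RNA-seq UMI counts from mouse tissues labelled with SAMENT, in which sortase A carried by the tumour cells attaches biotin to the cells around them. After overnight labelling with the substrate, lungs, livers, brains and leg bones were dissociated and the cells split by sorting for biotin into a positive and a negative fraction. After intracardiac injection there were 8 groups of 4 samples: biotin positive and biotin negative cells of bone, brain, liver and lung. A further bone experiment, with an injection the labels call only IIA, was deposited as 1 pooled matrix holding 6 biotin positive and 6 biotin negative hashtagged samples. All groups, the biotin negative ones too, came from injected and substrate-labelled mice. The labels give no strain, age or tumour line and do not say whether samples of 1 number came from 1 animal, so p-values measure only the spread between these samples.

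CSF1 and IL-34 both bind the receptor tyrosine kinase CSF1R, on which most tissue macrophages, microglia and osteoclasts depend for survival and growth. GM-CSF binds the alpha chain CSF2RA, which signals through the common beta chain CSF2RB. That beta chain also serves the receptors of IL-3 and IL-5, and mice have a further beta chain, CSF2RB2, that serves IL-3 alone. CSF3R is the receptor of G-CSF, which drives the formation and release of neutrophils from the marrow, and FLT3 is a receptor tyrosine kinase of early progenitors and dendritic cells. GM-CSF signalling is needed for alveolar macrophages, and CSF1 made by stromal cells in bone is needed for osteoclasts.

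In the GRCm38 annotation, the build behind mm10 named in the submitters' processing notes, the whole genes lie as follows. Csf1 (ENSMUSG00000014599, chr3:107741048-107760469, minus strand) and Il34 (ENSMUSG00000031750, chr8:110741829-110805924, minus strand) are the ligands. Csf1r (ENSMUSG00000024621, chr18:61100598-61132149, plus strand) is their receptor. Csf2ra (ENSMUSG00000059326, chr19:61223957-61228429, minus strand) encodes the alpha chain. Csf2rb (ENSMUSG00000071713, chr15:78325752-78353847, plus strand) and Csf2rb2 (ENSMUSG00000071714, chr15:78282507-78305721, minus strand) are near-identical neighbours in opposite orientation, 20030 bases apart. Reads from their shared sequence can be split or dropped in counting, so the levels of both are uncertain. Csf3r (ENSMUSG00000028859, chr4:126024550-126044440, plus strand) and Flt3 (ENSMUSG00000042817, chr5:147330741-147400489, minus strand) complete the list.

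After filtering, 55366 intracardiac cells (94 to 3505 per sample, 482617 to 44834665 UMIs) and 22362 IIA cells (249 to 3480 per sample, 2149784 to 27903856 UMIs) were kept. Samples sharing a replicate number shared 0 cell barcodes in 112 pairs, and samples of different numbers shared 341 in 384 pairs. Cells were clustered without the 8 genes, and clusters were named after marker lists, so that macrophage means macrophage-like throughout. Of 37 intracardiac clusters 29 were named, and 24 of 28 in the IIA experiment. Levels are CPM, the UMIs of a gene per 1000000 UMIs, of the summed cells of a class in a sample, given as mean ± SD over samples with at least 20 such cells. They are set side by side between classes for 1 gene at a time. The order of classes, which leaves out the unnamed clusters, is a description with no test. Neighbours in it are said to stand apart only where the ranges over samples do not overlap.

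Spi1, which encodes the myeloid transcription factor PU.1, was the gene whose levels across cell classes were most like those of Csf2rb, so the promoters were searched for GAGGAA, the core letters of the PU.1 motif. RefSeq promoter sequences (GRCm38.p6) matched 5 of the 8 genes and not Csf2rb itself, Csf1r or Il34. GAGGAA, on either strand of the 250 bases before the RefSeq start, was found in 3 of these, against 7639 of 32851 promoters (23.3%). Csf2ra had 2 adjoining copies beginning 14 bases before the start (chr19:61228419-61228448, minus strand), Csf2rb2 had 1 copy on the opposite strand, read as TTCCTC, at 167 bases (chr15:78305871-78305900, minus strand), and Csf3r had 1 copy at 86 bases (chr4:126024561-126024590, plus strand). The windows are printed 5′ to 3′ on the gene's strand, with the matching letters in capitals, and the matches are a description, not binding sites. The RefSeq starts of Csf2ra and Csf3r lie inside the genes as placed above, so the Csf2ra window overlaps that gene's end and the Csf3r window lies within the gene.
Csf2ra: ttcccaacctgcagatGAGGAAGAGGAAgc
Csf2rb2: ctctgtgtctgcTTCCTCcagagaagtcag
Csf3r: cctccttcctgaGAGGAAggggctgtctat
The windows of Csf1 and Flt3 did not hold these letters.

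Among the named classes of the intracardiac samples Csf1 was highest in microglia, at 266 ± 234 CPM (n = 3), with 59.6, 521 and 217 CPM in biotin positive brain replicates 2, 3 and 4. Type 2 innate lymphoid cells (62.5 ± 38.6 CPM, n = 5), endothelial cells (51.8 ± 28.5 CPM, n = 9) and neutrophils (49.1 ± 42.6 CPM, n = 32) followed, and the ranges of all neighbours in this order overlapped. Macrophages stood at 14.5 ± 30.8 CPM (n = 25) and B cells, taken here as a class that lacks the gene, at 3.41 ± 4.11 CPM (n = 26). Neutrophils made up 25.9% of the cells and gave 44.8% of all Csf1 UMIs (2642 UMIs). The unnamed clusters, among them cluster 19, led by the basophil markers Prss34 and Mcpt8, were 7.28% of the cells and gave 14.4%. Basophils (219 ± 137 CPM, n = 4) and stromal cells (126 ± 44.9 CPM, n = 3) led the order in the IIA bones, the latter apart from neutrophils (12.8 ± 12.9 CPM, n = 12). The 4 basophil samples were all biotin negative and the 3 stromal samples all biotin positive, so this order, and every IIA level of these classes, sets different sorts side by side. Stromal cells were 0.903% of IIA cells (202 cells) but gave 49.6% of the Csf1 UMIs (538).

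Il34 was close to 0 in most classes. In the 3 IIA samples with at least 20 stromal cells, all biotin positive, those cells held 23.95 ± 2.43 CPM, from 22.5 to 26.8 CPM, apart from every other class, on 54 UMIs in 108 cells. All 202 stromal cells of the IIA bones, of both sorts, gave 93.5% of the Il34 UMIs (186), so most of these UMIs came from samples with fewer stromal cells, which have no level here. In the intracardiac samples only 1 sample held 20 or more stromal cells (40 cells, 96.7 CPM from 15 Il34 UMIs). The 0.213% of cells that were stromal gave 49.1% of the Il34 UMIs (26 UMIs) and macrophages gave 20.8% (11 UMIs). Of stromal cells thinned to 1000 UMIs, 7.21% (3.697 to 13.6%) had an Il34 UMI, against 0 of 4841 B cells, which allows a share of up to 0.0620%. Intervals after shares are Wilson 95% intervals, and intervals and limits cover counting error only.

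Csf1r was highest in microglia, at 2133 ± 425 CPM (n = 3), with 2624, 1892 and 1884 CPM in the 3 samples, all above the macrophage range of 167 to 1589 CPM. Macrophages stood at 552 ± 391 CPM (n = 25), monocytes at 249.6 ± 55.3 CPM (n = 25) and conventional dendritic cells at 154 ± 66.02 CPM (n = 20). Alveolar macrophages, at 58.4 ± 15.4 CPM (n = 5) and from 45.3 to 84.4 CPM, lay below every sample of the macrophage class, close to neutrophils (43.2 ± 14.9 CPM, n = 32). B cells held 10.5 ± 8.48 CPM (n = 26) and T cells 11.3 ± 8.64 CPM (n = 26), the level that free RNA may give any class. With cells thinned to 1000 UMIs, a Csf1r UMI was found in 85.7% (82.1 to 88.6%) of microglia, 44.99% (43.5 to 46.5%) of macrophages, 23.2% (22.2 to 24.2%) of monocytes and 1.03% (0.784 to 1.36%) of B cells. Without thinning, at median depths of 5199, 5468, 7441.5 and 2226 UMIs, the shares were 98.4%, 78.4%, 77.05% and 2.21%. IIA bone macrophages (252 ± 68.2 CPM, n = 12) and monocytes (236 ± 39.8 CPM, n = 8) overlapped and stood apart from plasmacytoid dendritic cells (40.6 ± 10.4 CPM, n = 6). Osteoclast-like cells reached 20 cells in 1 IIA sample, where Csf1r stood at 518 CPM.

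Csf2ra, the GM-CSF binding chain, was spread over the myeloid classes. Monocytes (186 ± 38.3 CPM, n = 25), alveolar macrophages (184 ± 22.1 CPM, n = 5), neutrophils (166 ± 34.95 CPM, n = 32), macrophages (160.5 ± 47.6 CPM, n = 25), immature neutrophils (147 ± 23.2 CPM, n = 16) and conventional dendritic cells (142 ± 32.8 CPM, n = 20) overlapped. Microglia stood lower at 76.9 ± 19.4 CPM (n = 3), B cells at 38.1 ± 21.2 CPM (n = 26) and NK cells at 12.2 ± 9.59 CPM (n = 11). The partner chain Csf2rb was highest in alveolar macrophages (264 ± 73.9 CPM, n = 5) and neutrophils (263 ± 38.9 CPM, n = 32), followed by monocytes (170.3 ± 28.4 CPM, n = 25) and macrophages (138 ± 75.5 CPM, n = 25), with B cells at 44.2 ± 19.3 CPM (n = 26). With cells thinned to 1000 UMIs, 24.3% (22.98 to 25.7%) of alveolar macrophages, 23.8% (23.2 to 24.6%) of neutrophils and 2.62% (2.21 to 3.11%) of B cells had a Csf2rb UMI. Unthinned shares were 83.4%, 62.9% and 7.67%, at median depths of 8320.5, 3983 and 2226 UMIs. Basophils of the IIA bones, cells that respond to IL-3, held the highest Csf2rb at 474 ± 161 CPM (n = 4), apart from monocytes (217 ± 47.3 CPM, n = 8).

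Csf2rb2, the IL-3 specific beta chain, had another order. Plasmacytoid dendritic cells led it with 109 ± 31.8 CPM (n = 9), ahead of neutrophils (41.3 ± 10.8 CPM, n = 32) and macrophages (37.3 ± 20.4 CPM, n = 25). Immature neutrophils, at 19.9 ± 6.16 CPM (n = 16), stood apart from granulocyte precursors at 6.32 ± 2.22 CPM (n = 10), and B cells held 6.09 ± 9.92 CPM (n = 26). In the IIA bones basophils (133 ± 104 CPM, n = 4) and plasmacytoid dendritic cells (119.7 ± 25.7 CPM, n = 6) were highest and overlapped.

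Flt3 was highest in plasmacytoid (179.6 ± 50.02 CPM, n = 9) and conventional (118 ± 48.6 CPM, n = 20) dendritic cells, and the latter stood apart from monocytes (21.8 ± 11.5 CPM, n = 25). B cells held 8.36 ± 8.19 CPM (n = 26) and neutrophils 0.766 ± 0.999 CPM (n = 32). In the IIA bones plasmacytoid dendritic cells stood at 363 ± 60.97 CPM (n = 6), apart from haematopoietic stem and progenitor cells at 127 ± 76.2 CPM (n = 7). These plasmacytoid cells were 2.06% of IIA cells and gave 53.5% of the Flt3 UMIs (679). In the intracardiac samples conventional dendritic cells (2.56% of cells) gave 29.1%, monocytes 27.9%, unnamed clusters 20.6% and plasmacytoid dendritic cells 14.2%. With cells thinned to 1000 UMIs, 13.1% (10.8 to 15.8%) of plasmacytoid and 10.8% (9.26 to 12.5%) of conventional dendritic cells had a Flt3 UMI, against 0.9502% (0.713 to 1.27%) of B cells. Unthinned, these were 56.5%, 52.7% and 2.37%.

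**Figure D1:**
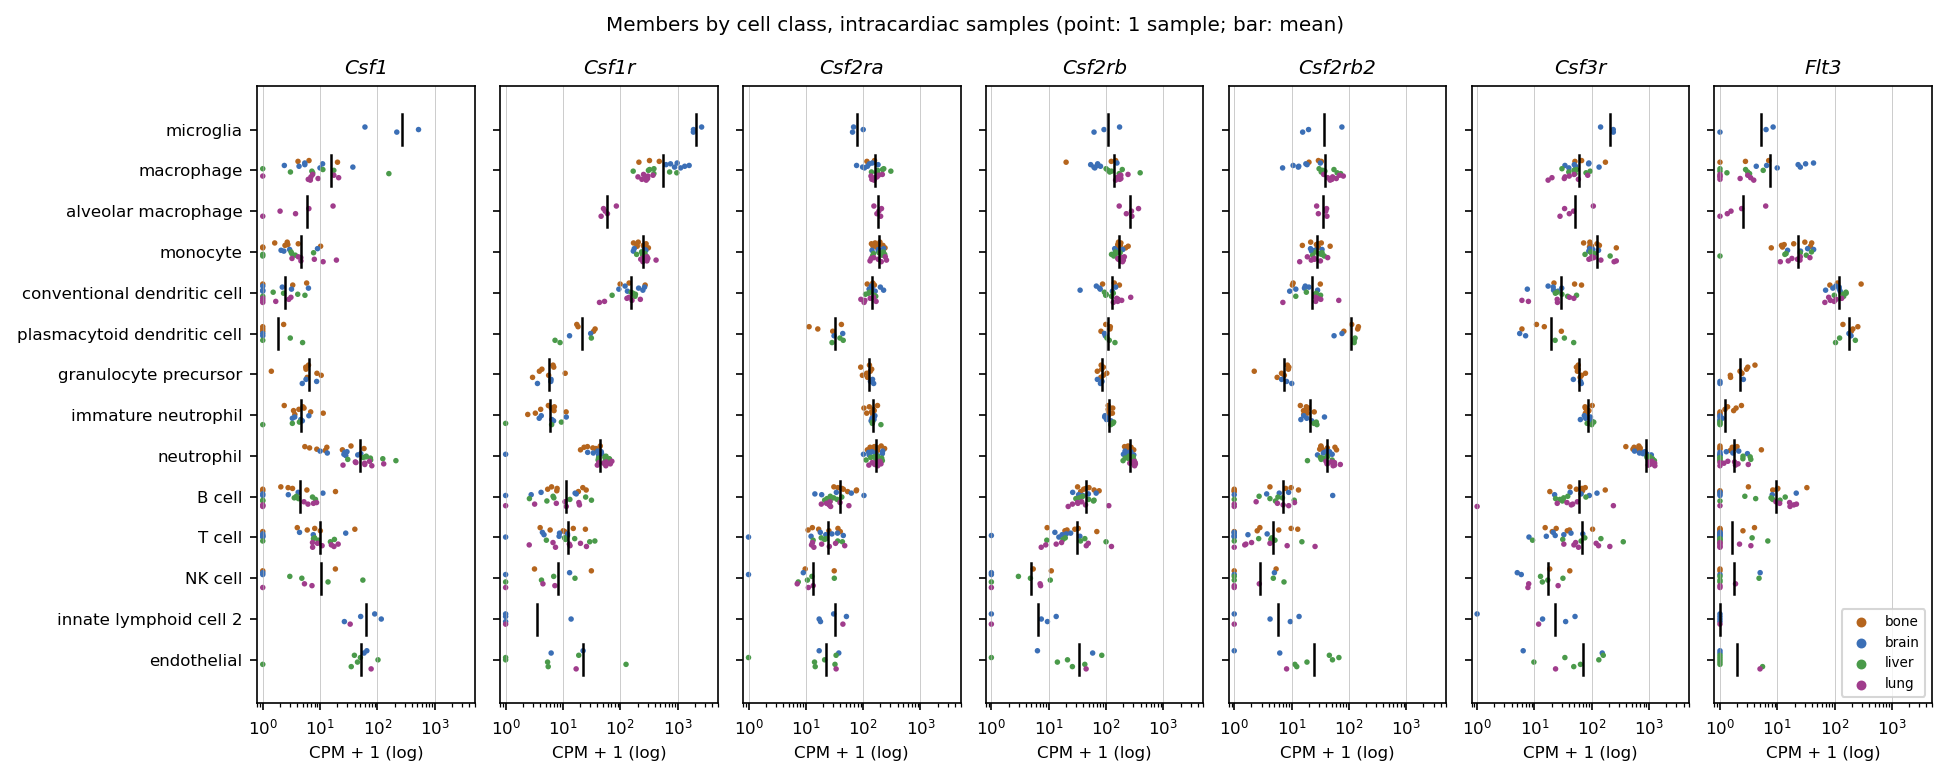
Levels of 7 of the 8 genes (Il34 is left out) in 14 intracardiac cell classes, on a log axis of CPM plus 1. Each point is 1 sample with at least 20 cells of the class, coloured by tissue, and the bar is the mean. Microglia lead Csf1r with 1884 to 2624 CPM, neutrophils lead Csf3r with 392 to 1259.95 CPM, and both dendritic classes lead Flt3.

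Csf3r was highest in neutrophils, at 895 ± 235 CPM (n = 32) and from 392 to 1259.95 CPM, apart from microglia (205 ± 54.8 CPM, n = 3), the next class. Monocytes (125 ± 57.7 CPM, n = 25) and immature neutrophils (84.6 ± 12.1 CPM, n = 16) followed. Granulocyte precursors (60.04 ± 8.22 CPM, n = 10) stood at the level of B cells (58.8 ± 50.99 CPM, n = 26) in CPM only. Per cell they held more, with 2243 Csf3r UMIs in 959 precursors against 674 in 4943 B cells. Neutrophils gave 68.4% of all Csf3r UMIs. Thinned to 1000 UMIs, 59.3% (58.5 to 60.1%) of neutrophils and 2.56% (2.15 to 3.05%) of B cells had a Csf3r UMI, and unthinned 93.5% and 5.77%. The microglia level came from the 3 biotin positive brain samples alone, with 142, 236 and 237 CPM and 25, 70 and 304 cells. In the IIA bones neutrophils held 924 ± 217 CPM (n = 12), apart from immature neutrophils (221 ± 40.9 CPM, n = 11), and granulocyte precursors held 177 ± 19.6 CPM (n = 9).

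Along the granulocyte clusters Csf3r stood at 60.04 ± 8.22 CPM (n = 10) in the precursor cluster led by Elane and Mpo, 53.7 ± 8.21 CPM (n = 11) in the Camp and Fcnb cluster, 104 ± 9.28 CPM (n = 16) in the Ltf cluster, 467 ± 97.8 CPM (n = 25) in the Retnlg cluster and 1033 ± 139.6 CPM (n = 30) in the Wfdc17 and Acod1 cluster. It reached 1569 ± 227 CPM (n = 22) in the cluster led by the immune genes Il1b, Ccrl2 and Acod1. The median depth of these clusters was lower in the same order, from 36952 to 2566 UMIs per cell, so levels in CPM and in UMIs per cell are both given. Per cell, Csf3r UMIs numbered 2.35, 1.23, 1.19, 3.19, 4.58 and 4.18 in the same 6 clusters. The later clusters held more Csf3r UMIs in fewer total UMIs. Csf1 had a different shape, with 5.35 ± 2.51 CPM (n = 10), 5.33 ± 2.42 CPM (n = 11), 2.697 ± 3.25 CPM (n = 16) and 8.52 ± 7.85 CPM (n = 25) in the earlier clusters, 26.3 ± 18.5 CPM (n = 30) in the Wfdc17 cluster and 188 ± 98.03 CPM (n = 22) in the Il1b cluster. In UMIs per cell Csf1 stood at 0.236, 0.118, 0.0243, 0.0372, 0.118 and 0.449. Csf2ra went from 125 ± 20.3 CPM to 207 ± 58.8 CPM, and Csf2rb went from 82.7 ± 9.605 CPM to 332 ± 45.5 CPM. In UMIs per cell both went the other way, Csf2ra from 4.57 to 0.554 and Csf2rb from 3.27 to 0.872. For these 2 genes the direction thus depended on the unit. The clusters were built from other genes of the same cells, so these levels carry no test.

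**Figure D2:**
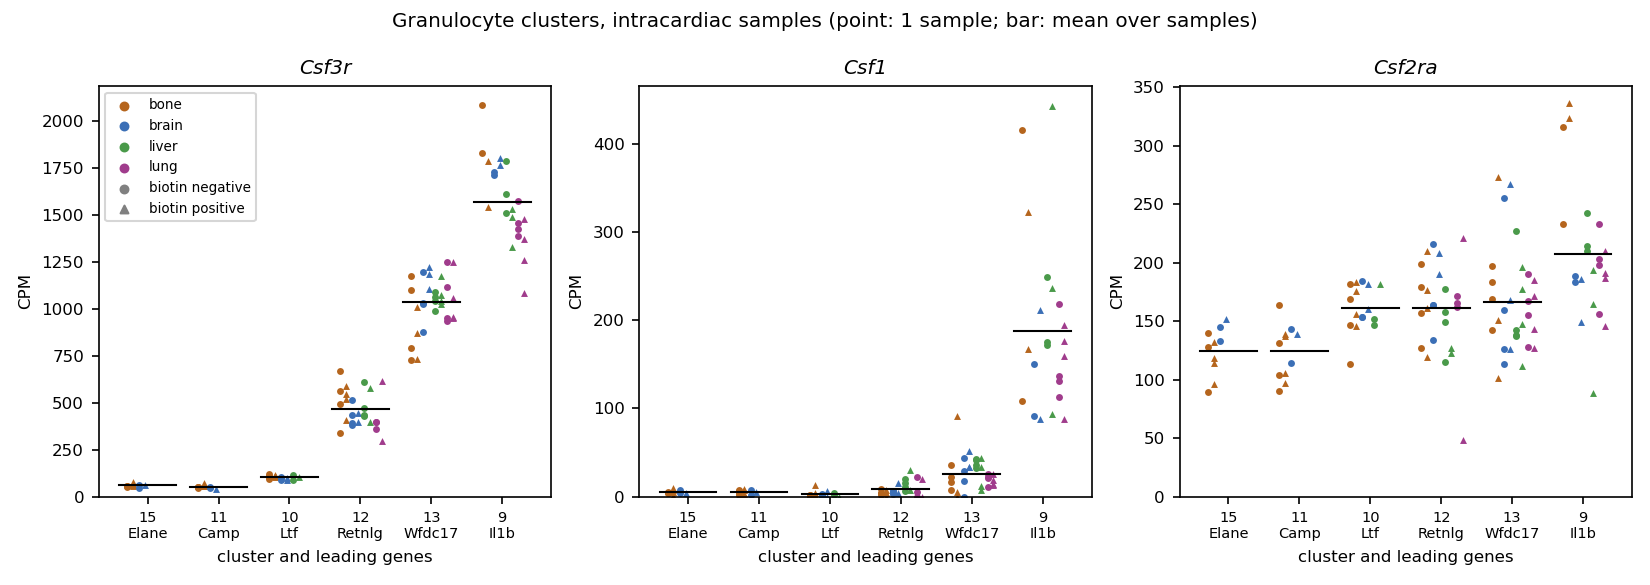
Csf3r, Csf1 and Csf2ra in 6 granulocyte clusters, each named by its number and a leading gene. Points are samples (circles biotin negative, triangles biotin positive), bars are means, and the axis is CPM. Csf3r climbs from 60.04 CPM in the Elane cluster to 1569 CPM in the Il1b cluster. Csf1 has its highest mean in the last cluster drawn. Csf2ra stays between 124 and 207 CPM, while its UMIs per cell, not drawn, go from 4.57 to 0.554.

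Genes with the most similar pattern were found by Pearson's r of log2(CPM + 1) over the 15 intracardiac class means, among 11664 genes. The points share libraries and differ in depth, so r is a description. P2ry6 (r = 0.957) and Trem2 (r = 0.95005) were among the genes most like Csf1r. Csf2rb was most like Spi1 (r = 0.953), Fam217b (r = 0.919) and Pfkfb4 (r = 0.8803), and Csf2ra most like Clec4a2 (r = 0.942) and Igsf6 (r = 0.928). Csf2rb2 stood nearest Peli2 (r = 0.922) and Fggy (r = 0.888), Csf3r nearest Gm34589 (r = 0.907) and Nlrp12 (r = 0.905), Flt3 nearest Kmo (r = 0.905) and Arhgap27os2 (r = 0.897), and Csf1 nearest Casp4 (r = 0.868) and Naa35 (r = 0.8498). Among the members themselves, r was 0.8103 between Csf2ra and Csf2rb, 0.747 between Csf2rb and Csf2rb2, -0.252 between Csf3r and Flt3, and -0.509 between Csf1 and Flt3.

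To ask whether the labelled niche differed from the rest of the tissue, summed counts of biotin positive and negative samples were compared with edgeR's quasi-likelihood test, adjusted by Benjamini-Hochberg over all genes tested and called under a false discovery rate of 0.05. Over 26 comparisons 163 member tests were made and 18 were called, 37 had p under 0.05 before adjustment, and DESeq2 called 24. The 18 calls fell in 7 comparisons, in which between 3.06% and 50.2% of all genes were called. The count therefore has no single background share, and the share of each comparison is given with its result. Log2 fold changes are biotin positive over negative. In sums over all cells of a sample, fewer cells of a type and less RNA per cell cannot be told apart, so the shares of classes are given beside them.

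In brain, Csf1r was higher in the biotin positive samples. Its level over all cells was 56.2, 170.5, 177 and 42.7 CPM in biotin negative replicates 1 to 4 and 337, 1138, 684 and 834 CPM in the positive ones. All 4 positive samples lay above all 4 negative ones, and replicate 1 was the lowest of the positive sort. The difference was called (log2 fold change 2.45, SE 0.539, 95% interval 1.23 to 3.66, adjusted p = 0.0479), in a comparison in which 3.06% of genes were called. It stood close to the threshold: leaving out any 1 library but positive replicate 1 ended the call, with adjusted p between 0.0502 and 0.152, and so did DESeq2's size factors within edgeR (0.0560), while the log2 fold change stayed between 2.15 and 2.78. Macrophages made up 4.34 ± 3.52% of the negative and 36.002 ± 31.6% of the positive brain cells per sample, and microglia 0.4303 ± 0.245% and 18.7 ± 19.9%. The part of these shares in the result was not tested. With the replicate number as a block, 6.89% of brain genes were called, Csf1r among them.

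The ligand Csf1 in brain stood at 7.24, 16.2, 16.1 and 6.697 CPM in the negative and 13.4, 5.602, 163 and 94.98 CPM in the positive samples. Positive replicates 3 and 4 were far above the rest, the other 2 near or within the negative range, and the difference was not called (log2 fold change 2.28, SE 0.918, adjusted p = 0.202). In the other tissues Csf1r overlapped between sorts. It was 88.4, 39.6, 38.9 and 22.4 CPM against 62.6, 141, 14.9 and 15.2 CPM in bone (adjusted p = 0.9501), and 139.8, 130.2, 159 and 45.4 CPM against 203, 868, 118 and 31.1 CPM in liver (adjusted p = 0.554). In lung it was 99.3, 121, 174 and 82.8 CPM against 113, 95.3, 77.3 and 118 CPM (adjusted p = 0.174). Macrophages were 0.274 ± 0.121% of the negative and 14.5 ± 17.2% of the positive cells in bone, 5.37 ± 4.31% and 31.7 ± 35.7% in liver, and 2.202 ± 1.04% and 10.8 ± 5.05% in lung (n = 4 each). Liver positive replicate 2 held by far the highest value of its group, and without it the liver log2 fold change went from 1.12 to -0.18. Bone positive replicate 2 had the same place in bone, where the fold change of 0.13 became -0.69 without it. The biotin effect in brain minus the mean of the effects in bone, liver and lung was 2.14 for Csf1r on the log2 scale (SE 0.750, adjusted p = 0.248), so the difference between tissues was not called.

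Flt3 was lower in biotin positive lung. It stood at 11.6, 16.1, 16.7 and 9.29 CPM in the negative and 8.37, 2.44, 3.23 and 3.405 CPM in the positive samples. Every positive sample lay below every negative one, with positive replicate 1 nearest to them. Flt3 fell (log2 fold change -1.86, SE 0.403, 95% interval -2.77 to -0.95, adjusted p = 0.0156), with 18.3% of genes called in this comparison. Conventional dendritic cells, the largest named source of Flt3 UMIs over the intracardiac samples, were 2.18 ± 1.01% of the negative and 1.9997 ± 1.35% of the positive cells per sample, plasmacytoid dendritic cells, whose level was the highest, 0.278 ± 0.1304% and 0.0952 ± 0.0727%, monocytes 17.5 ± 9.19% and 4.59 ± 2.79%, and alveolar macrophages 0.284 ± 0.371% and 43.5 ± 26.8%. Within conventional dendritic cells Flt3 was 99.5 ± 24.6 CPM (SD, n = 4) and 81.9 ± 21.7 CPM (SD, n = 2), a pair with no test.

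In the other intracardiac tissues the ranges of Flt3 overlapped between sorts, and edgeR without the replicate block did not call it. Brain held 23.7, 25.7, 17.03 and 7.85 CPM in the negative and 9.32, 12.8, 6.78 and 2.51 CPM in the positive samples (log2 fold change -1.51, SE 0.489, adjusted p = 0.126), and in all 4 same-numbered pairs the positive sample was lower. In brain Flt3 was called with the replicate number as a block (-1.5997, adjusted p = 0.0124) and by DESeq2 (-1.54, adjusted p = 0.0362). Conventional dendritic cells were 4.46 ± 2.18% of the negative and 2.55 ± 1.38% of the positive brain cells, plasmacytoid dendritic cells 1.12 ± 1.27% and 0.0453 ± 0.0906%, and monocytes 15.4 ± 7.08% and 2.49 ± 1.303%. Liver held 37.97, 23.2, 22.7 and 5.48 CPM and 16.7, 1.71, 4.31 and 0 CPM (log2 fold change -1.90, SE 0.769, adjusted p = 0.341), the positive sample again the lower of all 4 pairs. Bone held 26.4, 15.2, 7.77 and 3.57 CPM and 9.37, 15.8, 3.51 and 1.897 CPM (log2 fold change -0.93, SE 0.629, adjusted p = 0.668). Plasmacytoid dendritic cells were 1.82 ± 1.23% of the negative and 0.472 ± 0.496% of the positive cells in liver and 2.998 ± 3.31% and 0.485 ± 0.488% in bone. Monocytes were 19.9 ± 12.4% and 6.04 ± 8.49% in liver and 12.9 ± 8.77% and 4.91 ± 3.03% in bone. Conventional dendritic cells were 4.39 ± 2.11% and 2.12 ± 1.97% in liver and 1.0404 ± 1.04% and 1.29 ± 1.03% in bone. Positive liver replicate 4 held no Flt3 UMI among 482617 UMIs of 94 cells, which allows up to 6.22 CPM. Replicate 4 was the lowest of the negative sort in each of these 3 tissues. In bone 0% of 12533 genes and in liver 0% of 11854 genes were called by edgeR, 983 and 1571 had p under 0.05 before adjustment, and DESeq2 called 53 and 431. Of the 7 members tested in each tissue 1 had such a p, and DESeq2 called 0. The biotin effect of 1 tissue against the mean of the others was called for no member, where 0% (bone), 0.301% (brain), 0% (liver) and 2.54% (lung) of genes were called. Of 28 such member tests 4 had p under 0.05 before adjustment, and DESeq2 called 0.

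In the IIA bones 4 of the 8 genes fell in the biotin positive sort: Flt3, Csf3r, Csf2ra and Csf2rb. Flt3 ran from 12.2 to 22.97 CPM with a median of 16.2 in the negative and from 1.003 to 7.44 CPM with a median of 1.83 in the positive samples (6 each), with no overlap (log2 fold change -3.07, SE 0.396, 95% interval -3.93 to -2.21, adjusted p = 7.29e-05). Plasmacytoid dendritic cells were 2.59 ± 0.691% of the negative and 0.325 ± 0.455% of the positive cells, and stem and progenitor cells 1.39 ± 0.504% and 1.59 ± 0.998%. Within stem and progenitor cells Flt3 was 147 ± 61.02 CPM (SD, n = 6) in the negative sort and 8.87 CPM in 1 sample of 24 cells in the positive sort.

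Csf2ra ran from 192 to 239 CPM with a median of 215 in the negative and from 125 to 181 CPM with a median of 155 in the positive IIA samples, again without overlap (log2 fold change -0.71, SE 0.103, adjusted p = 0.000158). Csf3r ran from 185 to 438 CPM with a median of 276 and from 139 to 212 CPM with a median of 159.7 (log2 fold change -0.99, SE 0.212, adjusted p = 0.00216). Csf2rb ran from 106 to 155 CPM with a median of 138 and from 82.5 to 122 CPM with a median of 93.2 (log2 fold change -0.65, SE 0.138, adjusted p = 0.00206). For both of these the sorts overlapped. Granulocyte precursors, in which Csf3r was lower than in neutrophils, were 1.16 ± 0.617% of the negative and 19.7 ± 16.5% of the positive cells, and immature neutrophils 28.2 ± 4.59% and 7.08 ± 3.28%. Mature neutrophils, which gave 47.5% of the IIA Csf3r UMIs, were 26.1 ± 8.99% and 24.6 ± 5.15%. Monocytes, which gave 15.7% of the Csf2rb UMIs, were 9.41 ± 2.92% and 1.99 ± 1.22%. In this comparison 50.2% of genes were called, so a call of 4 in 8 is near the background share. Csf1r, Csf1, Il34 and Csf2rb2 were not called, Il34 ranging from 0.168 to 4.84 CPM over both sorts.

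**Figure D3:**
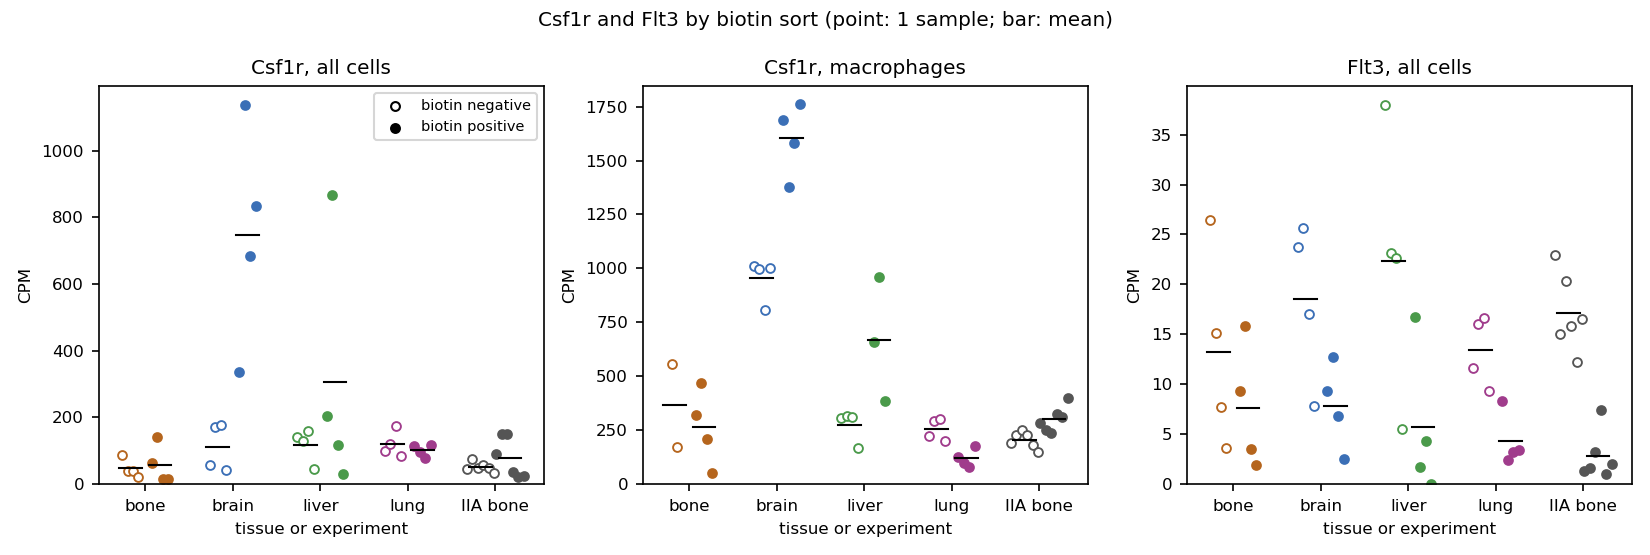
Csf1r over all cells, Csf1r in macrophages and Flt3 over all cells, by tissue and in the IIA bones. Each point is 1 sample (open biotin negative, filled biotin positive), the bar is the mean, and the axis is CPM. Positive brain lies above negative brain for Csf1r, and positive lung (2.44 to 8.37 CPM) and positive IIA bone (1.003 to 7.44 CPM) lie below their negative samples for Flt3.

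Within macrophages, which join the macrophage, alveolar macrophage and microglia clusters, Csf1r stood higher in the positive samples of brain, liver and IIA bone and lower in those of lung, and the lung and IIA differences were called. In brain it was 1012, 996, 808 and 1002 CPM in the negative and 1689.6, 1377, 1582 and 1760.3 CPM in the positive samples. All positive samples were above all negative ones, but the difference was not called (log2 fold change 0.62, SE 0.163, adjusted p = 0.145; 0.102% of genes called). DESeq2 called it (0.61, adjusted p = 0.00137), as did the fit with the replicate number as a block (0.62, adjusted p = 0.0279), in which 4.76% of genes were called. The cluster of microglia made up 11.4% of the negative and 32.3% of the positive brain cells in this set. In the largest brain macrophage cluster alone Csf1r was 866 ± 169.6 CPM (n = 3) and 1311 ± 332 CPM (n = 4), with overlapping ranges.

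Csf1 in the same brain macrophages was 0, 6.19, 62.8 and 44.1 CPM in the negative and 15.5, 6.14, 372 and 183 CPM in the positive samples. Replicates 3 and 4 were high in both sorts, and the difference was not called (log2 fold change 2.04, SE 1.23, adjusted p = 0.5256), but the block on the replicate number called it (1.998, adjusted p = 0.0127). Without the microglia and alveolar clusters Csf1 was 4.72 ± 4.12 CPM in the negative and 12.5 ± 16.2 CPM in the positive samples (SD, n = 4 each).

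In liver macrophages Csf1r was 305, 315, 309 and 167 CPM in the negative and 660.1, 960.3 and 383 CPM in the 3 positive samples with at least 10 cells. The sorts did not overlap, yet no call was made (log2 fold change 1.16, SE 0.332, adjusted p = 0.172; 0% of genes called). Cluster 31, led by Cd5l and the Kupffer cell marker Clec4f, made up 75.8% of the pooled positive and 10.96% of the pooled negative cells. Positive replicate 2 held 871 of the 1273 positive cells, and the mean share per sample was 55.8% (34.5 to 93.9%, n = 3) against 7.49% (0 to 17.4%, n = 4). Within it Csf1r was 1001 ± 244 CPM (n = 3) and 903 ± 186 CPM (n = 2). Within cluster 16, which has Spp1 among its leading genes, Csf1r was 341 ± 110.1 CPM (n = 3) and 201 ± 54.8 CPM (n = 3). Of the members in liver macrophages 1 had p under 0.05 before adjustment, and DESeq2 called 0.

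In lung macrophages Csf1r fell. It was 222, 291, 299.9 and 201 CPM in the negative and 127, 98.4, 79.4 and 178 CPM in the positive samples, without overlap (log2 fold change -1.32, SE 0.274, 95% interval -1.92 to -0.72, adjusted p = 0.0154; 12.9% of genes called). Leaving out negative replicate 4 gave -1.36 with an adjusted p of 0.0526. The make-up of the set moved with it: 79.7% of the positive cells were in the alveolar macrophage cluster 29 and 10.7% of the negative, which were mostly (79.6%) in the Spp1 cluster 16. Within cluster 16 Csf1r was 254 ± 45.9 CPM (n = 4) in the negative and 269 ± 26.4 CPM (n = 4) in the positive samples, and cluster 29 stood at 52.3 ± 5.97 CPM (n = 4). Without the alveolar and microglia clusters the log2 fold change was -0.10 (adjusted p = 0.894), with 0% of 5956 genes called. Csf3r (-0.97, adjusted p = 0.0518) and Csf2rb2 (-0.74, adjusted p = 0.0569) were not called in the joined set, and DESeq2 called 3 members there, these 2 and Csf1r. The replicate block called 2 members, Csf1r and Csf3r (-1.01, adjusted p = 0.00686), with 21.9% of genes called.

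In IIA bone macrophages Csf1r rose while Csf3r, Csf2rb and Csf2ra fell, 4 of the 5 members tested against 19.8% of genes called. Csf1r ran from 149.9 to 249 CPM with a median of 207 in the negative and from 238 to 397 CPM with a median of 296 in the positive samples (6 each), overlapping at the edge (log2 fold change 0.55, SE 0.1702, 95% interval 0.18 to 0.91, adjusted p = 0.0342). Csf3r ran from 93.7 to 173 CPM with a median of 116 and from 25.8 to 77.6 CPM with a median of 69.8, without overlap (log2 fold change -0.99, SE 0.235, adjusted p = 0.008204). Csf2rb ran from 141 to 400.2 CPM with a median of 316 and from 80.8 to 151 CPM with a median of 139 (log2 fold change -1.16, SE 0.233, adjusted p = 0.00337). Csf2ra ran from 245 to 361 CPM with a median of 293 and from 149 to 253 CPM with a median of 189 (log2 fold change -0.62, SE 0.181, adjusted p = 0.0251). The last 2 overlapped by little. Flt3 was too low to be fitted, from 9.22 to 62.3 CPM in the negative and from 0 to 5.14 CPM in the positive samples.

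The calls of Csf1r and Csf2ra in IIA macrophages were less stable than those of Csf3r and Csf2rb. Csf1r lost its call without negative replicate 1, 5 or 6 or positive replicate 5 or 6 (adjusted p from 0.0501 to 0.0883), and Csf2ra without negative replicate 5 or positive replicate 1, 2 or 3 (0.0642 to 0.0845). Without the low-count filter both lost it (0.103 for Csf1r and 0.0605 for Csf2ra), and Csf1r also with the replicate block (0.0543). Cluster 0, which has Pf4 and C1qb among its leading genes, held 90.4% of the negative and 86.6% of the positive macrophages. In that cluster alone the same 4 genes were called, in the same directions, with 25% of genes called. Neutrophil markers moved with these genes: the 15 markers, all detected in both sorts, summed to 31205 CPM (range 8589 to 49343) in negative and 14079 CPM (range 2039 to 26199.7) in positive macrophages. The 20 monocyte markers, also all detected, summed to 9868 CPM (range 6982 to 11666) and 4409.8 CPM (range 3267 to 5679). The part of free RNA or doublets in the lower Csf3r was not tested. IIA B cells of the negative sort, taken to lack the gene, held Csf3r at 46.7 ± 42.2 CPM (SD, n = 6).

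**Figure D4:**
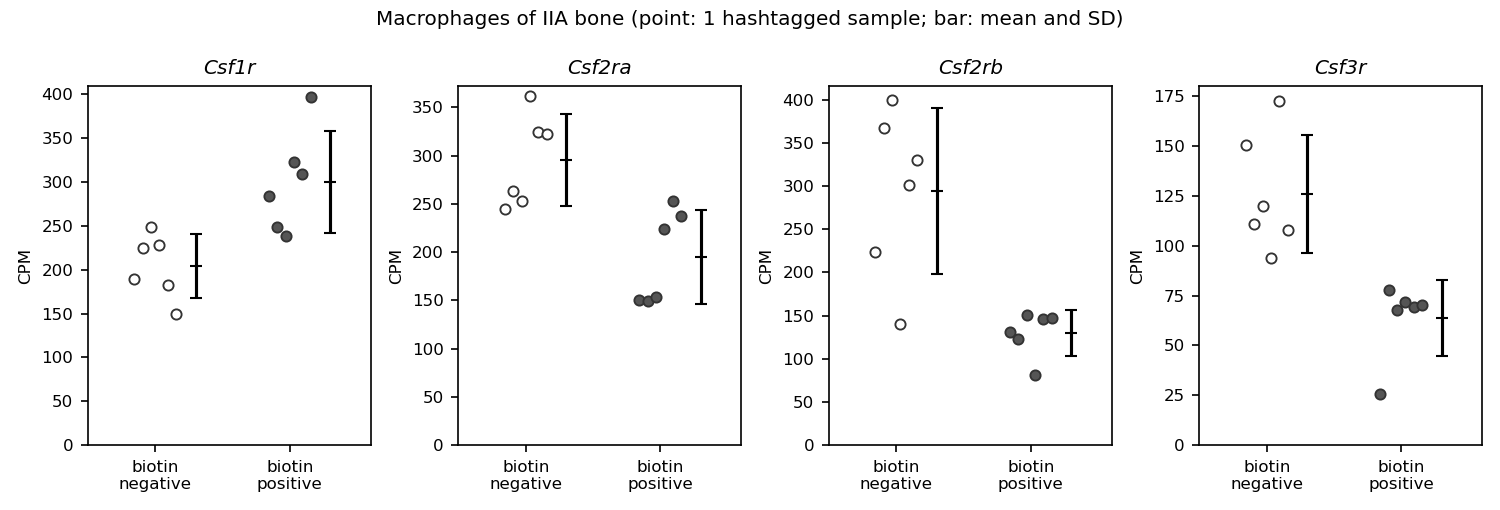
Csf1r, Csf2ra, Csf2rb and Csf3r in macrophages of the 12 IIA samples, in CPM. Points are samples, bars are the mean with the SD (n = 6 each). Csf1r is higher in the biotin positive sort, and Csf3r, at 25.8 to 77.6 CPM in the positive against 93.7 to 173 CPM in the negative samples, does not overlap.

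Within neutrophils, mature and immature together, no member was called between sorts in any intracardiac tissue by edgeR without the replicate block. Of 6 members tested in each of bone, brain, liver and lung edgeR called 0, 0 had p under 0.05 before adjustment and DESeq2 called 0. Among all genes the share called was 0% for bone, 0% for brain, 0% for liver and 0% for lung. With the replicate number as a block, Csf1 was called in lung neutrophils (0.51, adjusted p = 0.0339), with 1.19% of genes called, while without the block and positive replicate 1 its log2 fold change was -0.0023. In IIA neutrophils 11.3% of genes were called and 0 of 6 members, with Csf1 the nearest. Csf1 ran from 1.32 to 9.43 CPM with a median of 2.83 in the negative and from 0 to 31.97 CPM with a median of 11.4 in the positive samples (log2 fold change 1.5997, SE 0.567, adjusted p = 0.0782). DESeq2 called it (1.81, adjusted p = 0.0165), as did edgeR without positive replicate 6 (1.84, adjusted p = 0.0464). Csf3r ran from 329.7 to 873 CPM with a median of 483 and from 487 to 854 CPM with a median of 676 (log2 fold change 0.34, SE 0.188, adjusted p = 0.258). Without negative replicate 2 its difference was called (0.56, adjusted p = 0.0249), whereas in the mature class alone it had the other sign, at -0.23, with 14.5% of genes called. The make-up of the IIA neutrophils moved with the sort. Cluster 4, led by Acod1 and with Il1b among its leading genes, was 2.18% of the negative and 33.9% of the positive cells, cluster 5, with Osm among its leading genes, 2.93% and 15.01%, and the immature Ltf cluster 2 was 30.98% and 11.6%. The part of this shift in the values was not tested.

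Within monocytes 0 of 6 members were called in each of the 4 tissues and in the IIA bones. Among all genes the share called was 0% for bone, 0% for brain, 0% for liver, 0% for lung and 0.0442% for IIA. Of these 30 member tests 2 had an unadjusted p under 0.05 (Csf3r in lung and Csf1r in IIA), and DESeq2 called 1. In lung Csf3r was 99.6, 107, 97.01 and 88.2 CPM in the negative and 143, 193, 267 and 244 CPM in the positive samples. The sorts did not overlap (log2 fold change 1.08, SE 0.202, adjusted p = 0.156), and DESeq2 called the difference (adjusted p = 0.00192). The 15 neutrophil markers summed to 19213 CPM (range 10251 to 32707) in the negative and 36404 CPM (range 17308 to 64155) in the positive lung monocytes, and their part in the Csf3r values was not tested. The monocyte clusters moved as well: cluster 2, with Ccr2 among its leading genes, was 80.7% of the negative and 45.99% of the positive cells, and cluster 14, led by Ace, 17.8% and 51.8%. With the replicate number as a block, Csf3r was called in lung monocytes (1.07, adjusted p = 0.000496), with 4.53% of genes called. Csf1r in IIA monocytes had a log2 fold change of -0.53 (adjusted p = 0.452), with 3 positive samples of at least 10 cells.

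The tissues themselves were compared in the biotin negative samples, bone against the mean of brain, liver and lung. Neutrophils of bone held less Csf1, Csf3r, Csf1r, Csf2rb and Csf2rb2, so 5 of 6 members fell, in a comparison in which 36% of genes were called. Csf3r was 275, 160.1, 189.9 and 228 CPM in bone, 146, 775, 679 and 294 CPM in brain, 621, 978, 846 and 693 CPM in liver and 1077, 989.9, 1075 and 1194 CPM in lung (log2 fold change -1.86, SE 0.363, 95% interval -2.63 to -1.10, adjusted p = 0.00321). Brain replicates 1 and 4 lay near the bone values, and every liver and lung sample lay above all bone samples. Csf1 was 11.3, 4.13, 6.15 and 3.81 CPM in bone, 5.92, 25.9, 21.3 and 5.91 CPM in brain, 40.5, 58.5, 50.9 and 47.7 CPM in liver and 69.1, 39.7, 39.7 and 56.1 CPM in lung (log2 fold change -2.52, SE 0.423, 95% interval -3.42 to -1.63, adjusted p = 0.00224). Brain again overlapped bone, while liver and lung did not.

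Csf1r in the same neutrophils was 16.7, 11.4, 9.37 and 10.04 CPM in bone and 67.7, 55.4, 39.7 and 47.8 CPM in lung (log2 fold change -1.67, SE 0.348, adjusted p = 0.003901), with brain and liver between 8.62 and 50.8 CPM. Csf2rb was 149, 138, 165 and 139 CPM in bone and 303, 281, 320.5 and 252 CPM in lung (log2 fold change -0.70, SE 0.2197, adjusted p = 0.0222). Csf2rb2 was 18.9, 20.9, 27.7 and 22.9 CPM in bone and 37.8, 48.4, 55.6 and 41.4 CPM in lung (log2 fold change -0.67, SE 0.214, adjusted p = 0.02302). In brain and liver together Csf2rb ran from 113 to 289 CPM and Csf2rb2 from 19.1 to 44.1 CPM. For both genes every lung and liver sample lay above every bone sample, while brain overlapped bone. Csf2rb and Csf2rb2 lost their calls without bone replicate 1, 2 or 4 (adjusted p from 0.0539 to 0.0694 and from 0.0618 to 0.0717). Csf2ra was not called (log2 fold change -0.15, SE 0.137, adjusted p = 0.403).

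The stages of the neutrophils differed between the tissues beside these genes. The immature clusters 10 (Ltf) and 11 (Camp) made up 37.97% and 16.1% of bone neutrophils and 0.736% and 0.123% of lung neutrophils. The Il1b cluster 9 and the Wfdc17 cluster 13 made up 1.31% and 4.47% in bone and 40.02% and 53.8% in lung. Within cluster 12 Csf3r was 515 ± 139.7 CPM (n = 4) in bone and 384 ± 23.4 CPM (n = 3) in lung, and within cluster 13 948 ± 222 CPM (n = 4) and 1060.4 ± 148 CPM (n = 4). Csf1 within cluster 13 was 20.5 ± 11.9 CPM (n = 4) in bone and 20.01 ± 6.64 CPM (n = 4) in lung. With the mature neutrophil class alone, 12.1% of genes were called, and the log2 fold changes were -0.61 for Csf3r (adjusted p = 0.0147), -1.80 for Csf1 (0.00877), -0.54 for Csf1r (0.0367), -0.03 for Csf2rb (0.920) and 0.13 for Csf2rb2 (0.658). The calls of Csf2rb and Csf2rb2 ended there, and the log2 fold change of Csf3r in the joined set was -1.86.

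Over all biotin negative cells, Csf1 and Csf1r fell in bone, 2 of 7 members against 16.8% of genes called. Csf1 stood at 12.2, 5.19, 6.32 and 4.97 CPM in bone, 7.24, 16.2, 16.1 and 6.697 CPM in brain, 9.88, 27.9, 23.4 and 32.3 CPM in liver and 20.6, 24.4, 7.82 and 27.4 CPM in lung, with overlapping ranges (log2 fold change -1.24, SE 0.406, adjusted p = 0.0479). Csf1r, whose samples are given above, also overlapped (log2 fold change -1.23, SE 0.378, adjusted p = 0.0392). Macrophages were 0.274 ± 0.121% of the negative bone cells against 4.34 ± 3.52% in brain, 5.37 ± 4.31% in liver and 2.202 ± 1.04% in lung (SD, n = 4 each). Immature neutrophils were 26.1 ± 13.2% in bone and 10.4004 ± 10.07%, 2.97 ± 3.21% and 0.308 ± 0.217% in the others. Both calls were fragile. Csf1 lost it without any 1 of 11 of the 16 samples and kept it only without bone replicate 1, brain replicate 1 or 4, liver replicate 1 or lung replicate 3 (adjusted p up to 0.150 where lost). Csf1r lost it without bone replicate 2, 3 or 4, brain or liver replicate 2 or 3, or lung replicate 2 or 3 (up to 0.153). In biotin negative monocytes edgeR called 0 of 6 members, 0 had p under 0.05 before adjustment and DESeq2 called 0, with 0.0106% of genes called.

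A list of 51 other genes of these pathways (ligands, receptors, kinases and adaptors, feedback genes and lineage transcription factors) was counted in the same fits. In biotin negative neutrophils, bone against the other tissues, 4 of 41 tested rose and 21 fell, where 36% of all genes were called, with a median log2 fold change of -0.55 against 0.01 over all genes. The largest changes were those of the early response genes Egr1 (-3.20) and Egr2 (-2.35), the kinase gene Pim1 (-2.54) and the cytokine gene Osm (-2.52). In IIA neutrophils 11 of 39 rose in the biotin positive sort and 1 fell, where 11.3% of all genes were called, led by the G-CSF gene Csf3 (4.40), Osm (2.18), Cebpb (1.96) and Pim1 (1.75). The shift of the positive IIA neutrophils towards clusters 4 and 5, given above, stands beside these values too. In IIA macrophages 3 of 30 rose and 6 fell, where 19.8% of all genes were called, among them Osm (-1.71), Pim1 (-1.64), Ccnd1 (1.53) and Cebpa (1.34), with a median of -0.25 against -0.01 over all genes. Over all IIA cells 5 of 44 rose and 17 fell (median -0.22 against 0.08 over all genes), a share near the 50.2% of all genes called. The heparan sulphate proteoglycan gene Sdc1 (2.06), Gfi1 (1.78) and Tslp (1.56), named for the size of their change, all rose, whereas most of the called list genes fell.

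Over all brain cells 2 of 44 list genes rose and 0 fell, a share near the 3.06% of all genes called: the KIT ligand gene Kitl (4.16) and the cyclin gene Ccnd1 (1.94). Over all lung cells 4 of 45 rose and 5 fell, near the 18.3% of all genes called, with Egr2 (2.17) and Socs2 (1.98) among the former and Socs1 (-1.52) and Flt3l (-1.54), the gene of the FLT3 ligand, among the latter. In lung macrophages 1 of 39 rose and 7 fell, where 12.9% of all genes were called, among them Runx1 (1.10), Socs3 (-2.03), Cebpe (-1.76) and Mcl1 (-1.04). Over all biotin negative cells, bone against the other tissues, 3 of 48 rose and 10 fell, where 16.8% of all genes were called, with the GM-CSF gene Csf2 (-4.62), Egr1 (-2.63), Cebpe (2.60) and Egr2 (-2.29) the largest. The biotin effect in lung minus that in the other tissues was called for 1 of 48 list genes, Runx1 (1.29), where 2.54% of all genes were called. Csf2 and Csf3 rested on few UMIs, 0 to 5 of Csf2 in each bone sample and 1 to 5 of Csf3 in each negative IIA sample, so their fitted fold changes depend on the prior count. In the other 17 comparisons edgeR called 0 of the list, and 58 of 653 tests had an unadjusted p under 0.05.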

How the data were processed

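The deposited values are whole-number UMI counts for each gene in each barcode, per the file headers written by cellranger 6.1.2 for the 32 intracardiac samples and by cellranger 7.1.0 for the pooled IIA matrix. Mapping to mm10 and Seurat are named in the submitters' processing notes, and Seurat's version is not given in the sources used here. CellPlex tags were used to pool the intracardiac samples, per the labels, and the authors deposited a matrix for each. Whether intronic reads or strand were used in counting is not given in the sources used here.

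A barcode was kept if it had 500 or more UMIs, 200 or more genes and no more than 15% of UMIs from mitochondrial genes (55366 of 57065 intracardiac barcodes). IIA barcodes went to the hashtag with at least 10 counts and 3 times the second (22685 of 26666, of which 22362 passed), with hashtag names matched by their last 3 digits. Doublets were not removed, except in an alternative. Clustering used scanpy 1.11.5 (2000 variable genes without the 8 genes, 30 components, 15 neighbours, Leiden resolution 1), and names came from 30 marker lists with 375 genes, by thresholds set after the data had been seen. The 8 genes, the lists and the tests were chosen with earlier results of these data known.

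Counts were summed per sample and class (at least 10 cells for a fit, 20 for a level) and tested two-sided with edgeR 4.0.16 in R 4.3.3 (TMM, filterByExpr), adjusted over all genes, in 26 of 27 planned comparisons. Bone macrophages reached too few samples. DESeq2 1.42.0 was an alternative. All 8 genes are named whatever their values, and of the 51 pathway genes at most 4 called ones per comparison, by size of change. On simulated counts edgeR called, for bone, 49 of 50 genes raised 4-fold and 18 of 50 raised 2-fold. It also called 15 of 50 lowered 2-fold and 4 of 12164 unchanged genes. For lung these counts were 48 of 50, 13 of 50, 11 of 50 and 4 of 11978. They hold for the spread that was simulated only. Whether the 8 genes spread more than this between samples was not tested. Deviations of same-numbered sorts had a positive r in every pair of bone (0.448 to 0.738), brain (0.213 to 0.629), liver (0.256 to 0.501) and IIA (0.0778 to 0.562). In lung r was -0.0916 for number 3. Same-numbered sorts were not mutually the most alike for brain number 4, lung number 3 and IIA numbers 1, 3 and 5. The 8 intracardiac samples of a number listed 1 set of CellPlex tags and shared no barcode, so the block on the number is given beside intracardiac results it changes, lung included. Precision rests on 94 to 3505 cells per intracardiac sample and 249 to 3480 per IIA sample. A few genes that the naming rules would list are not reported here.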

Additional observations from a re-analysis of the deposited data

Results flagged for a closer look

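In 209 groups of 4 to 10 samples examined, 11 had 1 sample far from the others by Dixon's criterion, which chance gives in about 1 in 20 groups, so the number is near what chance gives. Over all cells, Csf2rb2 stood at 36.6 CPM in biotin negative liver replicate 2 against 23.8 to 25.96 CPM in the others, and Csf3r at 207 CPM in negative bone replicate 4 against 119 to 129 CPM. Flt3 stood at 8.37 CPM in positive lung replicate 1 against 2.44 to 3.405 CPM, and at 7.44 CPM in positive IIA replicate 4, a sample of 249 cells, against 1.003 to 3.24 CPM. Il34 stood at 4.84 CPM in negative IIA replicate 1 against 0.707 to 2.24 CPM.

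In macrophages, Csf1r was low in negative brain replicate 3 (808 CPM against 996 to 1012 CPM) and in negative liver replicate 4 (167 CPM from 34 cells, against 305 to 315 CPM). Csf2rb was high in negative lung replicate 1 (249 CPM against 169.5 to 177 CPM), and Csf3r low in positive IIA replicate 1 (25.8 CPM against 67.7 to 77.6 CPM). In monocytes Flt3 reached 36.9 CPM in positive bone replicate 2 against 6.85 to 11.3 CPM. In neutrophils Csf1 reached 42.6 CPM in positive brain replicate 3 against 18.1 to 19.1 CPM. The called differences these samples enter kept their direction without them.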

How the results depend on the processing

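Of the recomputed fold changes of named results, 642 kept direction and side of the threshold, 53 lost a call, 20 gained one and 8 reversed. Reversals were all of uncalled or lost results: Csf1r over all bone cells (main 0.13) was -0.34 with the replicate block and ranged from -0.69 to 0.48 with 1 sample left out (-0.69 without positive replicate 2, -0.05 without negative replicate 4). Csf1r over all liver cells was -0.18 without positive replicate 2 (range -0.18 to 1.47), Csf1 in lung neutrophils was -0.0023 without positive replicate 1 (to 0.68), Csf3r in IIA neutrophils was -0.23 in mature cells only, and Csf2rb2 and Csf2ra in biotin negative neutrophils were 0.13 and 0.095 in mature cells only. The cause of reversals was not tested.

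Counts of members called changed as follows. Brain, all cells (main 1): 2 with DESeq2, 0 with RLE size factors, 2 with the block, 0 to 1 with 1 sample left out. Lung neutrophils (0): 1 with the block (Csf1). IIA neutrophils (0): 1 with DESeq2, 1 without the low-count filter, 2 with the block (Csf1 and Csf3r), 0 to 1 left out. Lung monocytes (0): 1 with DESeq2, without the filter and with the block (Csf3r). Brain macrophages (0): 1 with DESeq2 and 2 with the block. Lung macrophages (1): 3 with DESeq2, 3 without the 5% of cells with the highest Scrublet scores, 2 with the block, 0 without the alveolar and microglia clusters, 0 to 1 left out. IIA macrophages (4): 2 without the filter, 3 with the block (Csf1r lost, adjusted p = 0.0543), 2 to 4 left out. Biotin negative, bone against the others: all cells (2) 1 without the filter, 1 without high Scrublet scores, 0 to 2 left out; neutrophils (5) 3 in mature cells only, 3 without the filter, 3 to 5 left out. In IIA the numbers need not pair samples.

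A looser hashtag limit, a stricter mitochondrial limit and Leiden resolution 0.5 moved no count by over 1.5 times. Clustering with the 8 genes was tried for intracardiac class levels only, and the counts were not recomputed with it. Of the levels and shares, 97 stayed within their spread and 7 moved, all of them shares of cells with a UMI that were higher when thinned to 2000 UMIs. Brain monocytes could not be fitted without high Scrublet scores or with at least 20 cells, nor liver and IIA monocytes with 20. Depth limits Il34 (53 intracardiac UMIs) and classes of few cells.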

Other observations

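Unnamed intracardiac cluster 8, led by Igfbp6 and Cxcr2, held the highest Csf3r of the granulocyte clusters, at 2049 ± 338 CPM (n = 9), with a median of 1965 UMIs per cell and 4.64 Csf3r UMIs per cell. Its Csf1 level was 94.7 CPM. In the IIA bones, basophils were 0.680% of cells and gave 13.1% of the Csf1 UMIs.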
